A study of Mus musculus with 6 samples.

Results

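The genes described here are the adrenomedullin, apelin and endothelin systems, 3 families of secreted vasoactive peptides and the receptors that read them. They were taken by name from the deposited gene table, as the 10 symbols Adm, Calcrl, Ramp1, Ramp2, Ramp3, Apln, Aplnr, Edn1, Ednra and Ednrb. Each name matched 1 of 54532 listed genes. All 10 passed a minimum mean level of 0.5 FPKM (fragments scaled by gene length and library depth), and 15418 genes in all were tested. The libraries came from ventricular cardiomyocytes of C57BL/6J mice at 1 day of age. In the shGDF11 group (n = 3) the cells received short hairpin RNA against Gdf11. In the control group (n = 3) they received a control hairpin, named sh-nc in the sample labels and sh-Vector in the treatment protocol. Both groups shared the multiplicity of infection, 200, and the time to RNA extraction, 48 h. The labels name neither the promoter of the hairpin nor its sequence, and the treatments are numbered 1 to 3 without saying whether the numbers stand for different cultures or different hairpins, so the p-values reflect the spread among these libraries alone, which may be technical.

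Adrenomedullin (from Adm) is a secreted peptide that widens vessels and stabilises the endothelial barrier. Its receptor is the calcitonin receptor-like protein CALCRL, whose ligand preference is set by a partner protein: RAMP2 or RAMP3 makes an adrenomedullin receptor, and RAMP1 makes the receptor of calcitonin gene-related peptide (CGRP). Apelin (from Apln) acts on APLNR and is known in the heart for raising contractility and in vessels for guiding sprouting. Endothelin 1 (from Edn1) is a strong vasoconstrictor and growth stimulus of cardiomyocytes. It acts through EDNRA, found on muscle cells, and EDNRB, which also clears the peptide.

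The hairpin's target was lower in each shGDF11 library. Gdf11 was at 0.614, 0.601 and 0.778 FPKM in shGDF11 and at 2.76, 2.30 and 2.31 FPKM in control, without overlap. Per library, 15267083 to 16152910 reads fell in genes, as recovered from the FPKM steps. The floor used is 3 reads, or 0.18 to 0.191 FPKM at a length of 1 kb. Cardiomyocyte markers were abundant in both groups: the 9 summed to 6523 to 6769 FPKM in shGDF11 and 8005 to 8182 FPKM in control. Actc1 was the largest part of these sums, and the median log2 fold change of the 9 was 0.14. Markers of other cell types were also present, and their values stand beside the genes they touch.

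Of the 10 genes, 4 were lower in shGDF11 (Adm, Apln, Edn1 and Ramp2), 1 was higher (Ednra), and 5 were not called by limma at an adjusted p under 0.05. Over all genes tested, the share called was 27.6%, with 13.1% lower and 14.4% higher. Higher calls thus made up 52.4% of all calls, and 66.3% after rescaling to TPM. The median log2 fold change was -0.19 over the 10 genes and 0.01 over all genes tested. The genes of the 3 peptides, the largest falls of the set, each stood at 34.2% to 36.8% of the control mean. A fall of that depth was uncommon in these data, since 2.55% of tested genes were called with a change past 1 on the log2 scale in either direction. For 7 of the 10 genes every library of one group lay above every library of the other, as it did for 45.8% of all genes tested.

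**Figure D1:**
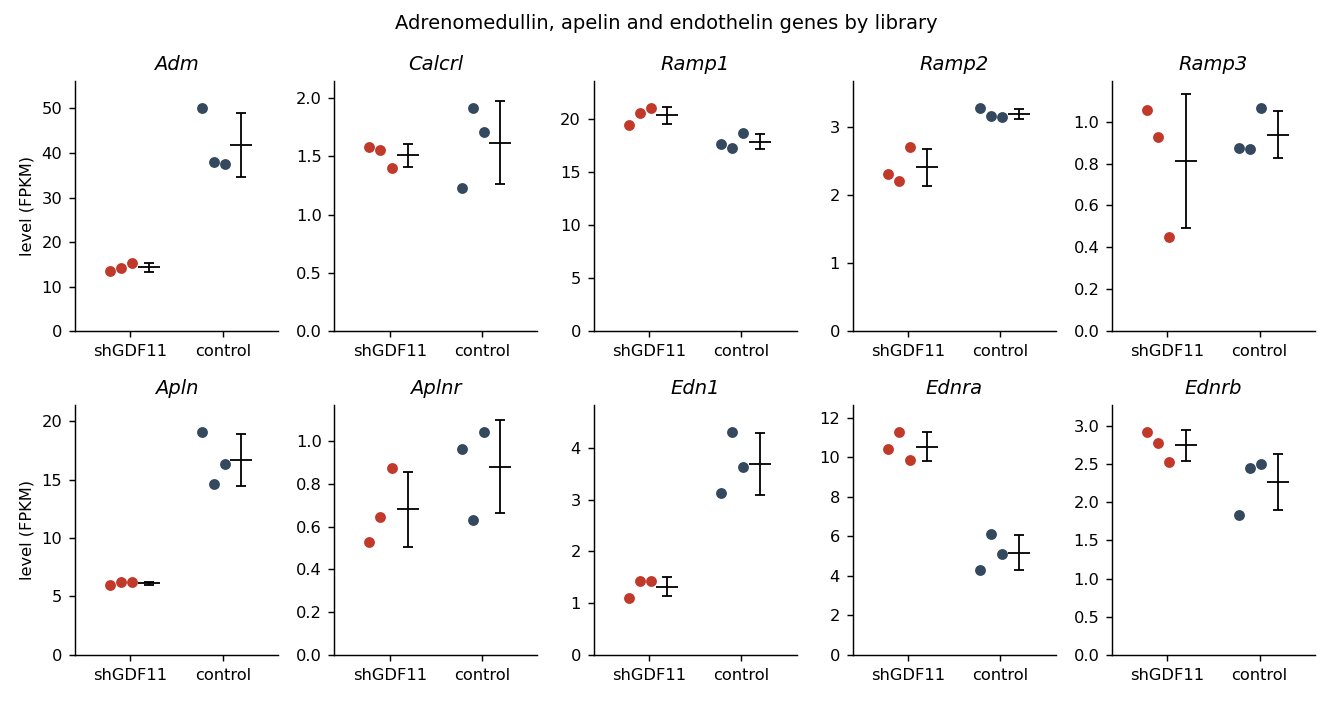
Level of each of the 10 genes in FPKM (vertical axis, from 0, own scale per panel) in the 3 shGDF11 and the 3 control libraries. Points are libraries, and bars are the mean and SD. Adm, Apln, Edn1 and Ramp2 lie lower in every shGDF11 library than in any control library, and Ednra lies higher.

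Adm fell most. It was at 13.5, 14.2 and 15.3 FPKM in the shGDF11 libraries, against 50.1, 38.1 and 37.4 FPKM in control. The highest shGDF11 library lay far below the lowest control library. Mean levels were 14.3 ± 0.916 FPKM in shGDF11 and 41.9 ± 7.16 FPKM in control (SD, n = 3 each), with 358 to 399 reads per shGDF11 library and 988 to 1275 per control library. On the log2(FPKM + 0.5) scale Adm thus fell by 1.51 ± 0.12 (SE; limma adjusted p = 0.000468). This change exceeded, in size, that of 99.2% of the genes tested. The gene (ENSMUSG00000030790) lies on the plus strand of chromosome 7 at 110627661 to 110629820 of GRCm38.

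Apln showed a fall of similar size. The shGDF11 libraries held 5.99, 6.21 and 6.24 FPKM and the control libraries 19.1, 14.7 and 16.3 FPKM. The shGDF11 values were nearly equal among themselves (SD 0.135 FPKM), while the control values spread more widely (SD 2.25 FPKM), and the groups were separate. Apln fell by 1.36 ± 0.0984 (SE) on the log2 scale (limma adjusted p = 0.000361), and its reads numbered 310 to 320 per shGDF11 library and 770 to 946 per control library. It lies on the minus strand of chromosome X at 48025146 to 48034853.

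The ratio of Adm to Apln within a library was 2.25, 2.29 and 2.45 in shGDF11 and 2.62, 2.59 and 2.29 in control. The ratios overlapped between the groups (exact two-sided permutation p = 0.2, n = 3 each; the smallest p that 3 against 3 allows is 0.1), so no difference between the 2 falls was detectable.

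Edn1 was the least abundant of the 3 peptide genes and fell with them. It stood at 1.11, 1.43 and 1.42 FPKM in shGDF11, against 3.12, 4.32 and 3.64 FPKM in control. These levels rest on 39 to 50 reads per shGDF11 library and 105 to 154 per control library, and the groups did not overlap. Scaled for depth, shGDF11 held 0.356 times the Edn1 reads of control, and counting error alone gives this ratio an exact 95% interval of 0.291 to 0.433. Edn1 fell by 1.2 ± 0.136 (SE) on the log2 scale (limma adjusted p = 0.00141). The gene lies on the plus strand of chromosome 13 at 42301476 to 42307990, and an antisense gene covers 1.64% of its exon bases. Without a stated strand setting, reads of a gene and its antisense partner cannot be told apart.

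The 250 bases before the RefSeq start (GRCm38.p6) of the 3 genes that fell and of Ednra, which rose, are printed so that their upstream sequence can be compared. Capitals mark the core of the hypoxia response element, ACGTG or GCGTG on either strand, a motif searched because all 3 peptide genes are known as hypoxia-inducible. The sequences run 5′ to 3′ in the direction of the gene. They lie at chr7:110627407-110627656 (plus strand), chrX:48034854-48035103 (minus), chr13:42301226-42301475 (plus) and chr8:77724453-77724702 (minus).
Adm: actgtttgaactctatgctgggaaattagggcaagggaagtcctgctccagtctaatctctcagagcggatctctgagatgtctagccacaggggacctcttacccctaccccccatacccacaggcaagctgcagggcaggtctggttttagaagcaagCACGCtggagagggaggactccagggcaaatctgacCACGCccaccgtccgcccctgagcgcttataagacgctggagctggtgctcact
Apln: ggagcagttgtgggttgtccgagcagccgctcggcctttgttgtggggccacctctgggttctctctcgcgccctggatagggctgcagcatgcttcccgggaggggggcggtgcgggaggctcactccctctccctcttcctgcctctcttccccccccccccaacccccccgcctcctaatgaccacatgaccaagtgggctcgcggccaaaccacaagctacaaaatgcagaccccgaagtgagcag
Edn1: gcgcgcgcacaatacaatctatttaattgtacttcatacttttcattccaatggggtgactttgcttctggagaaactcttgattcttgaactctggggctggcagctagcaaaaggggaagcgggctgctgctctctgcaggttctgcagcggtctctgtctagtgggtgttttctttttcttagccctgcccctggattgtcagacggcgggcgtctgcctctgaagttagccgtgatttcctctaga
Ednra: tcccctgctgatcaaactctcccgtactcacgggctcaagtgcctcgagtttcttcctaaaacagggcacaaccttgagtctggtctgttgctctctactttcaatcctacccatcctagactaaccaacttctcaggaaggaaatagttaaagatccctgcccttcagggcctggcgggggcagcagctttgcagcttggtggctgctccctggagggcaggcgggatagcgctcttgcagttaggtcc
Over the whole 300-base window, which runs 250 bases before to 50 after the start, Adm held 2 cores, both read on the minus strand and beginning 90 and 54 bases before the start. Edn1 held 1 core, 22 bases after its annotated start and so outside the printed stretch. Apln and Ednra held none in this window. Of all 32851 windows 43.8% held at least 1 core and 20.6% at least 2. The AP-1 motif TGANTCA, found in 7.81% of all windows, and CAGACA, a SMAD-box sequence found in 21% of them, had no match in these 4 windows on either strand. Windows were found for 8 of the 10 genes. Of the others among these 8, Ramp3 and Ednrb held 2 hypoxia cores each and Calcrl 1, so cores were also present in genes that were not called. Calcrl alone of the 8 held a CAGACA match, read on the minus strand and beginning 192 bases before the start.

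The receptors did not follow the peptides as a group. Ednra, the endothelin receptor linked to contraction and growth, was higher in shGDF11, and Ramp2, the adrenomedullin partner of CALCRL, was lower. Calcrl itself, Ramp1, Ramp3, Aplnr and Ednrb were not called.

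Ednra was at 10.4, 11.3 and 9.85 FPKM in the shGDF11 libraries and at 4.31, 6.11 and 5.10 FPKM in the control libraries. The lowest shGDF11 value was above the highest control value, and the mean in shGDF11 was 203% of control. Ednra rose by 0.97 ± 0.122 (SE) on the log2 scale (limma adjusted p = 0.0020), on 870 to 1013 reads per shGDF11 library and 371 to 558 per control library. Ednra (minus strand of chromosome 8, 77663031 to 77724464) shares 1.66% of its exon bases with a gene on the other strand.

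Ednrb was at 2.92, 2.78 and 2.53 FPKM in shGDF11, against 1.83, 2.45 and 2.5 FPKM in control. The groups were separated by a narrow margin, and the gene was not called (log2 fold change 0.24, 95% interval -0.05 to 0.53, limma adjusted p = 0.19). The 2 receptor genes can also be compared within a library. Ednra exceeded Ednrb 3.56-, 4.07- and 3.90-fold in the shGDF11 libraries and 2.35-, 2.5- and 2.04-fold in the control libraries. This ratio did not overlap between the groups (exact two-sided permutation p = 0.1, the smallest possible; 0.167 after Benjamini-Hochberg adjustment over 5 ratios).

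Ramp2 was at 2.30, 2.20 and 2.70 FPKM in shGDF11 and at 3.28, 3.16 and 3.14 FPKM in control. The groups did not overlap, but shGDF11 replicate 3 came closest to control. Its call was the weakest of the 5 (log2 fold change -0.35 ± 0.0934 SE, limma adjusted p = 0.0312). The call was lost without shGDF11 replicate 1 or 2 or any 1 control library (adjusted p up to 0.111). It was also lost on the TPM scale (0.0974) and when low genes were kept in the test (0.0796). The annotation also gives Ramp2 33.4% of its exon bases in common with Vps25 on the same strand, and how reads in shared exons were assigned is not given in the sources used here. Vps25 itself was listed with 8 to 12 reads per shGDF11 library and 10 to 13 per control library.

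Ramp1, the CGRP partner of CALCRL, was the most abundant receptor gene of the set. It was at 19.5, 20.6 and 21.1 FPKM in shGDF11, against 17.6, 17.3 and 18.7 FPKM in control. The groups did not overlap, but the difference missed the threshold (log2 fold change 0.18, 95% interval 0.04 to 0.33, limma adjusted p = 0.0634). It passed after rescaling to TPM (limma adjusted p = 0.0477).

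Ramp3 was at 1.06, 0.929 and 0.449 FPKM in shGDF11 and at 0.876, 0.869 and 1.07 FPKM in control. Only 10 to 24 reads per shGDF11 library and 19 to 24 per control library lay behind these values. The log2 fold change of Ramp3 was -0.16 (95% interval -0.66 to 0.34, limma adjusted p = 0.61), so a change of moderate size in either direction was not detectable at this depth.

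Of the summed FPKM of the 3 Ramp genes, Ramp1 took 85.3%, 86.8% and 87% in shGDF11, against 80.9%, 81.1% and 81.6% in control. Ramp2 took 10.1%, 9.29% and 11.2% in shGDF11 and 15%, 14.8% and 13.7% in control. Neither share overlapped between the groups (exact two-sided permutation p = 0.1 for each, 0.167 adjusted over the 5 ratios). The Ramp3 share overlapped, at 1.86% to 4.64% in shGDF11 and 4.02% to 4.66% in control. Transcript shares do not give the shares of receptor complexes.

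**Figure D2:**
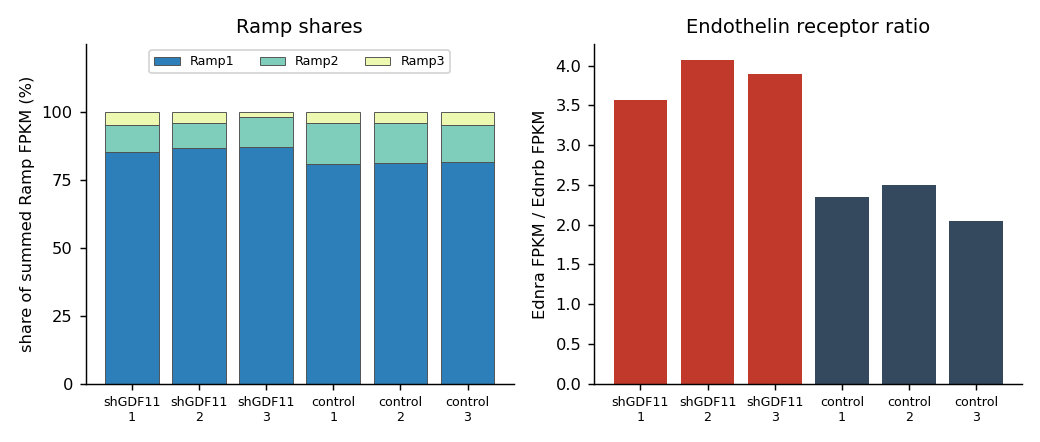
Left, share of each Ramp gene in the summed Ramp FPKM of a library (%), as stacked bars for the 3 shGDF11 and the 3 control libraries. Right, Ednra FPKM divided by Ednrb FPKM in the same libraries. Ramp1 takes 85.3% to 87% in shGDF11 and 80.9% to 81.6% in control, and the endothelin receptor ratio is 3.56 to 4.07 in shGDF11 and 2.04 to 2.5 in control.

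Calcrl, the receptor that all 3 RAMP proteins need, was at 1.58, 1.55 and 1.40 FPKM in shGDF11, against 1.23, 1.92 and 1.71 FPKM in control. The control libraries enclosed the shGDF11 libraries. The log2 fold change of Calcrl was -0.06 (95% interval -0.41 to 0.29, limma adjusted p = 0.79). Aplnr, the apelin receptor, was at 0.526, 0.644 and 0.871 FPKM in shGDF11 and at 0.963, 0.632 and 1.04 FPKM in control, on 32 to 52 reads per shGDF11 library and 39 to 63 per control library. The groups overlapped (log2 fold change -0.22, 95% interval -0.67 to 0.23, limma adjusted p = 0.42).

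The order of levels among the 10 genes differed between the groups. In shGDF11 it ran Ramp1, Adm, Ednra, Apln, Ednrb, Ramp2, Calcrl, Edn1, Ramp3 and Aplnr, highest first. Neighbours in that order overlapped for Ednrb and Ramp2, for Calcrl and Edn1, and for Ramp3 and Aplnr. In control the order was Adm, Ramp1, Apln, Ednra, Edn1, Ramp2, Ednrb, Calcrl, Ramp3 and Aplnr. There the overlaps were Ramp1 with Apln, Ednra with Edn1, Edn1 with Ramp2, Ednrb with Calcrl, and Ramp3 with Aplnr. In control every Adm library lay above every Ramp1 library, and in shGDF11 every Ramp1 library lay above every Adm library.

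Genes that make, convert, clear or resemble these peptides moved in both directions. Of 18 such genes, 9 passed the filter, and 4 of these were not called. Of the others, 3 were lower in shGDF11 (Ece1, Adm2 and Ackr3) and 2 were higher (Edn3 and Calca). Over all genes tested, 13.1% were lower and 14.4% higher. Edn3 and Calca passed the filter only through their levels in shGDF11, so the count and the median log2 fold change of the 9 (0.02) describe the genes that passed and no more. The largest change was that of Edn3, which encodes another endothelin that prefers EDNRB and is known for its part in neural crest development.

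Edn3 was at 1.33, 1.71 and 1.69 FPKM in the shGDF11 libraries, against 0.0928, 0.0146 and 0.149 FPKM in the control libraries. The shGDF11 libraries held 90, 115 and 112 reads and the control libraries 6, 1 and 10. Scaled for depth, shGDF11 held 18.6 times the Edn3 reads of control, with an exact 95% interval of 11.4 to 32.3 that covers counting alone. On the log2(FPKM + 0.5) scale, which damps the change of so low a gene, Edn3 rose by 1.83 ± 0.175 (SE; limma adjusted p = 0.000869). Its control mean, 0.0855 FPKM, lay below the filter, so Edn3 was tested only because of its level in shGDF11. In shGDF11 its level was close to that of Edn1 (1.11 to 1.43 FPKM), whereas in control it lay far below Edn1 (3.12 to 4.32 FPKM). Edn2, the remaining endothelin gene, had 1 to 4 reads per shGDF11 library and 2 to 4 per control library.

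Ece1, the protease that releases active endothelin from its precursor, was at 10.3, 10.4 and 10.8 FPKM in shGDF11 and at 18.2, 15.4 and 17.2 FPKM in control. It fell in each shGDF11 library (log2 fold change -0.66 ± 0.0755 SE, limma adjusted p = 0.00142). Its relative Ece2 had 0 to 2 reads per shGDF11 library and 3 to 9 per control library. Ece2 shares 57.5% of its exon bases with another gene on the same strand, and how reads in shared exons were assigned is not given. Furin, a convertase of many precursors that includes the endothelin precursor, was at 21.4 to 25.1 FPKM in shGDF11 and 26.1 to 34.6 FPKM in control, and was just short of the threshold (limma adjusted p = 0.0508). With limma voom on the recovered reads the Furin difference was called (adjusted p = 0.00929).

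Adm2, which encodes the related peptide intermedin, was at 4.55, 5.55 and 5.25 FPKM in shGDF11, against 8.63, 7.26 and 6.38 FPKM in control (log2 fold change -0.49 ± 0.122 SE, limma adjusted p = 0.0250). Ackr3, a scavenging receptor that also binds adrenomedullin, was at 3.07, 3.06 and 2.80 FPKM in shGDF11, against 3.74, 3.83 and 4.58 FPKM in control (log2 fold change -0.38 ± 0.0961 SE, limma adjusted p = 0.0252). Both sets of values were separate, but both calls were lost without control replicate 2 or any 1 shGDF11 library, with adjusted p up to 0.0812 for Adm2 and 0.0877 for Ackr3. Both were also lost when low genes were kept in the test (0.0613 for Adm2 and 0.0623 for Ackr3). The Ackr3 call was also lost without control replicate 3 (0.0534) and after rescaling to TPM (0.0980).

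Calca, from which calcitonin and CGRP are spliced, was at 0.903, 1.41 and 1.21 FPKM in shGDF11, against 0.34, 0.606 and 0.437 FPKM in control. The groups did not overlap, on 25 to 39 reads per shGDF11 library and 9 to 17 per control library. The control mean of Calca, 0.461 FPKM, lay below the filter, so the gene was tested only because of its level in shGDF11 (log2 fold change 0.80 ± 0.185 SE, limma adjusted p = 0.0193). The call was lost without shGDF11 replicate 2 (0.0771) or 3 (0.0677) and when low genes were kept in the test (0.0510). The gene table does not say which of the spliced forms these reads came from.

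Pam, which amidates adrenomedullin and CGRP, was abundant and close between the groups, at 165.3 to 171.5 FPKM in shGDF11 and 158.1 to 168.5 FPKM in control (log2 fold change 0.05, 95% interval -0.08 to 0.18, limma adjusted p = 0.51). Crcp, which couples the CGRP receptor to its G protein, was at 13.8 to 15.1 FPKM in shGDF11 and 13.4 to 16.1 FPKM in control (limma adjusted p = 0.90). Mme, the peptidase neprilysin, was at 2.75 to 3.03 FPKM in shGDF11 and 1.88 to 2.81 FPKM in control (limma adjusted p = 0.27). Among the genes below the filter were Calcb, Calcr, Iapp, Apela, Edn2, Ece2, Ecel1 and Kel. Iapp had 0 reads in all 6 libraries, so any level it had lay below the floor of 3 reads per library. Calcr, the calcitonin receptor, had 0 reads in each shGDF11 library and 0 to 6 in control.

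**Figure D3:**
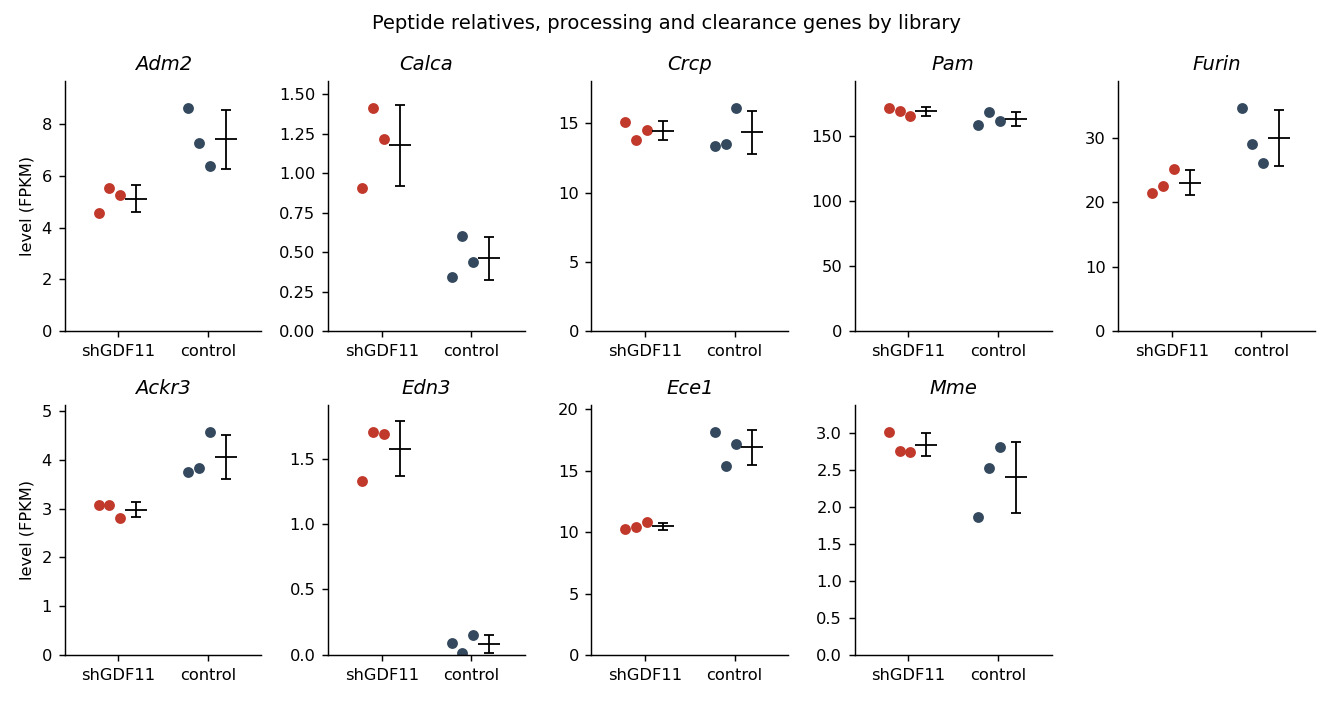
Level in FPKM (vertical axis, from 0, own scale per panel) of the 9 relatives, processing and clearance genes that passed the filter, in the 3 shGDF11 and the 3 control libraries. Points are libraries, and bars are the mean and SD. Edn3 lies at 1.33 to 1.71 FPKM in shGDF11 and 0.0146 to 0.149 FPKM in control, and Ece1 lies lower in each shGDF11 library.

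**Figure D4:**
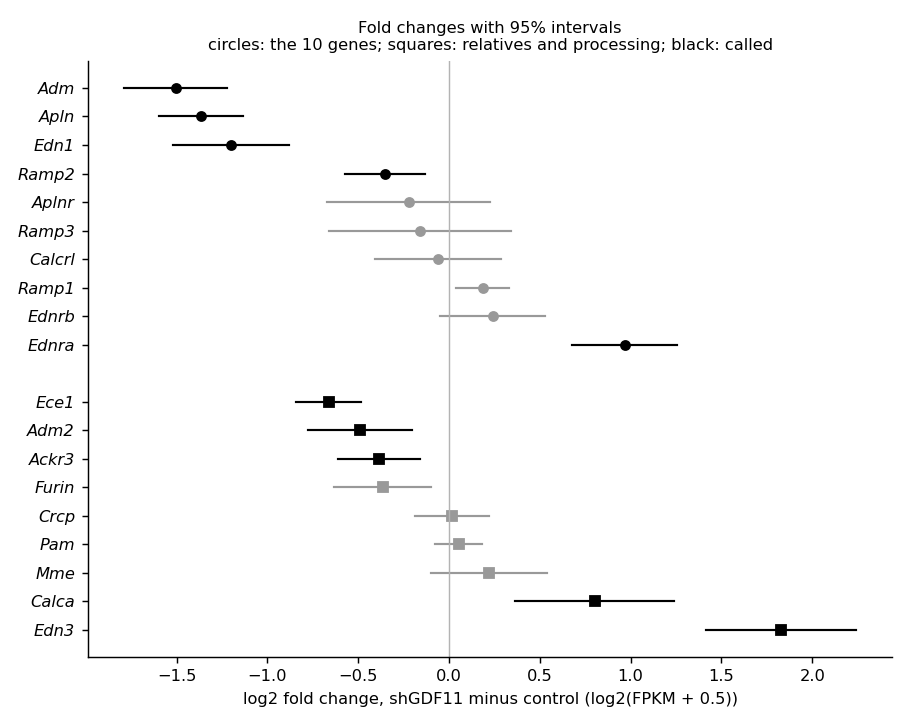
Log2 fold change of shGDF11 minus control on log2(FPKM + 0.5) (horizontal axis) with its 95% limma interval, for the 10 genes (circles) and the 9 tested relatives (squares). Black marks genes called at an adjusted p under 0.05. Adm, Apln and Edn1 lie between -1.51 and -1.20, and Ednra and Edn3 lie at 0.97 and 1.83. Edn3 and Calca were tested only because of their levels in shGDF11.

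The G protein pathways below these receptors were mixed. Of 30 genes, all tested, 6 were higher, 5 lower and 19 not called, and the median log2 fold change of the list was -0.05. The number called, 11 of 30, stands beside 27.6% of all genes tested. Among the alpha subunit genes, Gnas (Gs), Gnaq and Gna11 (Gq family) were not called. Gnas shares 13.1% of its exon bases with an antisense gene, and its level was uneven among the controls, at 2.61 to 11.5 FPKM.

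Gucy1a1, a subunit of the nitric oxide receptor guanylate cyclase, had the smallest p of this list and stood at 12.7 to 13.5 FPKM in shGDF11 and 6.16 to 7.0 FPKM in control (log2 fold change 0.93, limma adjusted p = 0.00038). Gucy1b1, the other guanylate cyclase gene of the list, stood at 87.2% of control and was not called (limma adjusted p = 0.141, and 0.0132 at the lowest over the alternatives). Gna12, a G protein alpha subunit, rose by a smaller step than Gucy1a1, to 28.8 FPKM in shGDF11 against 21.7 FPKM in control. Plcb1, a phospholipase C that Gq activates, was at 1.69 to 1.87 FPKM in shGDF11 and 0.855 to 0.961 FPKM in control (log2 fold change 0.70, limma adjusted p = 0.00435). Plcb3 and Plcb4, also phospholipase C genes of the list, were not called, at 88.6% and 101.5% of control. The adenylyl cyclases, which make cyclic AMP, split, with Adcy9 and Adcy6 higher and Adcy5 and Adcy4 lower. Adcy9 averaged 3.87 FPKM in shGDF11 and 2.21 FPKM in control, and rose. Adcy5 and Adcy6 are the main cardiac forms. Adcy5 averaged 10.6 FPKM in shGDF11 and 15.6 FPKM in control, and fell. Adcy6 averaged 29.4 FPKM in shGDF11 and 24.1 FPKM in control, and rose (log2 fold change 0.28, limma adjusted p = 0.0193, up to 0.0764 over the alternatives). Adcy4 averaged 2.19 FPKM in shGDF11 and 3.31 FPKM in control, and also fell. The limma adjusted p of Gna12, Adcy9, Adcy5 and Adcy4 was between 0.00335 and 0.00478.

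Among 19 genes of other vasoactive peptide systems, 8 were tested, 2 were higher and 0 lower by limma at the adjusted threshold, close to the 27.6% called over all genes tested. Both that rose belong to the angiotensin system, but Ace and Agtr2 of that system were also tested and not called. Ace stood at 99.0% of control and Agtr2 at 101.7%. Agtr1a, the angiotensin II receptor of muscle cells, was at 4.39, 4.82 and 4.32 FPKM in shGDF11 and at 1.23, 1.57 and 1.72 FPKM in control (log2 fold change 1.33 ± 0.114 SE, limma adjusted p = 0.000613). Agt, the precursor of angiotensin, was at 5.28, 4.17 and 3.61 FPKM in shGDF11 and at 2.09, 2.09 and 2.14 FPKM in control (log2 fold change 0.88 ± 0.13 SE, limma adjusted p = 0.00362). Neither gene overlapped between the groups. By limma voom on the recovered reads, and without the variance trend, 1 of the 8 was lower, as was 1 at an unadjusted limma p under 0.05.

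Because Adm, Apln and Edn1 are known as hypoxia-inducible, 10 genes induced by the factor HIF-1 were set beside them. Of these, 9 were lower in shGDF11 and 0 higher, beside 13.1% lower and 14.4% higher over all genes tested. The median log2 fold change of the 10 was -0.85. Egln3, an oxygen-sensing hydroxylase, stood at 26.9% of the control mean and Vegfa at 54.8%, on either side of the 34.2% of Adm. The summed level of the 10 was 71.0% of control, and Ldha, which was not called, stood at 100.7%. Whether these genes and the peptide genes share a cause was not tested.

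Endothelial cells are a known source of Apln and Edn1 and carry Calcrl, Ramp2, Aplnr and Ednrb. Most, but not all, of the markers of these cells were lower in shGDF11. Of 15 endothelial markers, 10 were lower and 0 higher in shGDF11, beside 13.1% lower and 14.4% higher over all genes tested. The 5 not called were Tek, Ptprb, Cldn5, Emcn and Sox17, at 103.8%, 113.5%, 91.9%, 86.2% and 48.0% of control. The median log2 fold change of the 15 was -0.52, and none was at 0 in any library. Their summed level was 66.4 to 68.9 FPKM in shGDF11 and 94.2 to 102.3 FPKM in control, which is 68.0% of control. In bulk libraries, fewer cells of a type and less RNA per cell cannot be told apart. Divided by that sum in the same library, Adm, Apln and Edn1 stood at 50.6%, 54.4% and 52.6% of control, without overlap between the groups. The markers in the sum did not change alike. Ramp2 and Aplnr stood at 110.2% and 113.8% on that scale, with overlap, and Calcrl and Ednrb at 139.5% and 179.7%, without overlap. Percentages on that scale are ratios of geometric means. This scaling was chosen after the data were seen, and its 7 exact permutation tests gave p of 0.1 at the lowest (0.14 adjusted over the 7).

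Markers of other cell types are given beside the 27.6% of all genes tested that were called. Of 9 smooth muscle and pericyte markers, cells in which Ednra and Ramp1 are also known, 5 were lower and 0 higher, and their summed level was 456.9 to 463.2 FPKM in shGDF11 and 1067 to 1141 FPKM in control, which is 41.7% of control. Their median log2 fold change was -0.49, and 1 of them, Tagln, passed the filter only through control. Tagln was at 0.276 to 0.522 FPKM in shGDF11 and 0.672 to 1.18 FPKM in control, and shares 62.4% of its exon bases with an antisense gene. Most of the sum was Acta2, and the other 8 summed to 89.0 to 90.7 FPKM in shGDF11 and 105.0 to 117.3 FPKM in control, which is 80.9% of control. These 8 differed: Cnn1 stood at 38.5% of control, and the 4 not called (Smtn, Pdgfrb, Kcnj8 and Abcc9) at 98.2% to 125.4%. Ednra stood at 203% of control in the same libraries. Of 8 fibroblast markers 2 were higher and 0 lower (summed 368.4 to 385.5 FPKM in shGDF11 and 291.5 to 346.2 FPKM in control). Of the 7 macrophage markers tested 2 were lower and 0 higher (summed 40.9 to 45.9 FPKM in shGDF11 and 52.6 to 60.6 FPKM in control). Of 9 cardiomyocyte markers 2 were higher and 3 lower, with a median log2 fold change of 0.14. Actc1, the largest part of their sum, stood at 66.1% of control. The 0 counts of these lists, and of the endothelial and HIF-1 lists above, come from limma at the adjusted threshold, and they were also 0 at an unadjusted p under 0.05 and by limma voom. The part of these cells in the results was not tested.

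**Figure D5:**
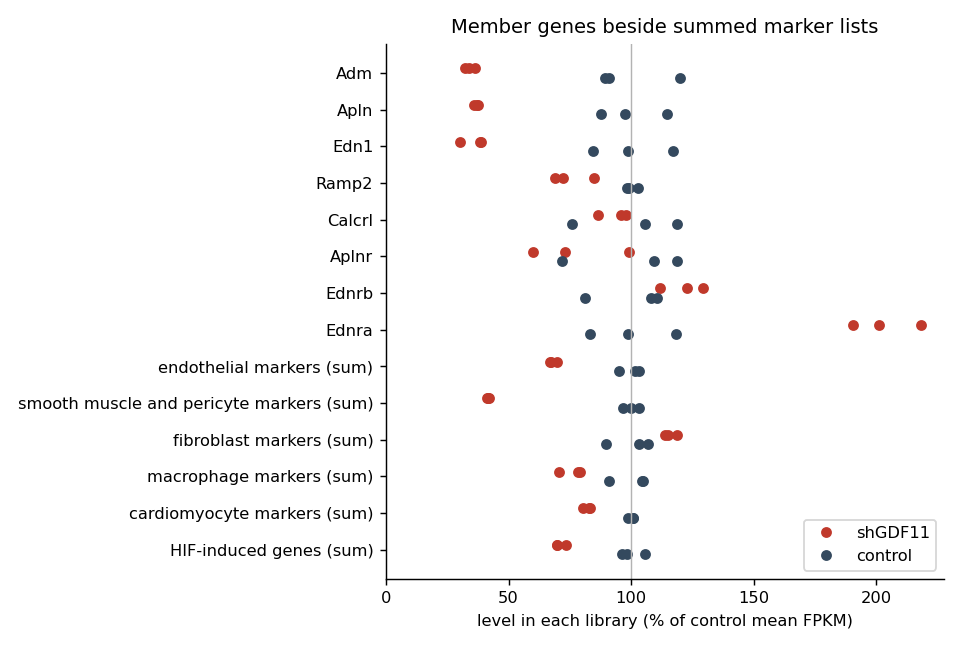
Level in each library as a percentage of the control mean (horizontal axis, from 0) for 8 of the genes and for the summed FPKM of 6 gene lists. Red points are shGDF11 libraries and dark points control libraries. Adm, Apln and Edn1 lie further below 100% in shGDF11 than the endothelial, macrophage and cardiomyocyte sums, and the smooth muscle sum, most of it Acta2, lies at 41.7% of control. Actc1 is the largest part of the cardiomyocyte sum.

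The protein-coding genes whose levels ran most closely with the 3 peptide genes over the 6 libraries were found by Pearson's r of log2(FPKM + 0.5), among genes of at least 5 FPKM. For Adm they were Pnpla2, Gaa and Gipr (r = 0.999, 0.999 and 0.998), for Apln Dlst, Hbegf and Tgfbi (r = 0.999, 0.999 and 0.998), and for Edn1 Ddx3y, Ap1g1 and Prpf8 (r = 0.999, 0.999 and 0.997). The 6 points form 2 groups of 3, so r here mostly reflects the difference between the groups. Of 7387 candidates, 7.35% had an r above 0.95 with Adm, and 7.26% with Apln, and 3.70% of 7388 candidates had one with Edn1. The fold changes of these neighbours ranged widely. Gipr, an incretin receptor, fell by 1.92 and Hbegf, a growth factor of the EGF family, by 1.68 on the log2 scale, while Ddx3y, a helicase gene of the Y chromosome, fell by 0.24.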

How the data were processed

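Primary neonatal mouse ventricular cardiomyocytes with a Gdf11 hairpin (n = 3) or a control hairpin (n = 3) were profiled by RNA-seq, and the treatment label set each library's group. The authors deposited 1 table of FPKM and gene lengths for 54532 genes. Read processing used HISAT2 (version 2.0.5), CASAVA (1.8) and featureCounts (1.5.0-p3) on GRCm38, or mm10, per the submitters' processing notes. Which annotation release and strand setting were used is not given there. GENCODE M21 (GRCm38) held 54409 of the identifiers, 53499 of them at the same coordinates.

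Multiplying FPKM by length recovered whole reads (100% of positive values within 0.05 of a whole read). The filter was a mean of 0.5 FPKM or more over the 6 libraries. Groups were compared by limma 3.58.1 on log2(FPKM + 0.5) (two-sided, eBayes with trend, Benjamini-Hochberg over all genes tested) in R 4.3.3. The method was checked only on simulated reads in which far fewer genes changed than were called here. Fold changes on that scale understate the change of low genes. Alternatives changed the pseudocount, filter, scaling (TPM or median of ratios), trend and libraries used, or ran voom on the recovered reads. Intervals on reads cover counting error only. Ratios within a library were tested by an exact permutation test (SciPy 1.17.1). Promoter sequences are RefSeq's (GRCm38.p6). The members and lists were chosen with earlier results of these data known. Named were the 10 genes, every tested relative or processing gene, the called signalling genes with the smallest p (up to 6) and vasoactive genes (up to 4), Vegfa, Egln3, and 3 neighbours of each peptide gene. Genes outside that rule (Vps25, Gnas, Gnaq, Gna11, Adcy6, Gucy1b1, Plcb3, Plcb4, Ace, Agtr2, Ldha, single cell-type markers such as Acta2, Actc1 and Tagln, and genes below the filter) were named after their values were seen.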

Additional observations from a re-analysis of the deposited data

How the results depend on the processing

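Adm, Apln, Edn1 and Ednra kept their direction and their call under the 15 alternatives, with limma adjusted p of at most 0.0127, except that Edn1 is not tested at a mean of at least 5 FPKM. Ramp2 (log2 fold change -0.35) lost its call with no filter (-0.35), after rescaling to TPM (-0.27), and in the fit with a replicate block (-0.35). With 1 library left out Ramp2 ran from -0.42 to -0.30, and of these 6 fits its call was kept only without shGDF11 replicate 3 (-0.42). Ramp1 was called after TPM (0.27). The 10 genes gave 2 higher calls under TPM. At a mean of at least 5 FPKM fewer genes are tested, and there 3 of the 10 were called, 2 of them lower, with 1474 higher calls over all genes. All calls numbered 4253, and 2328 to 4233 with 1 library left out (1256 to 2241 higher, 1072 to 1992 lower). The total was 2720 without shGDF11 replicate 1, 2328 without replicate 2 and 2529 without replicate 3. After TPM 66.3% of calls were higher (1324 lower) against 52.4%.

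Replicate numbers did not pair the libraries: deviations of same-numbered libraries from their group means had correlations of -0.052 to 0.015, and not every library correlated best with its own number. With the replicate block 3223 genes were called, and the calls of Adm2 (limma adjusted p = 0.0597) and Ackr3 (0.0673) were lost.

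Among the lists, whose alternatives were added after the data were seen, relatives and processing genes gave 1 higher and 1 lower call with no filter, 0 higher at 5 FPKM, 1 lower with the block, and 1 to 2 higher and 1 to 3 lower with 1 library left out. G protein genes gave 2 lower calls at 5 FPKM, 3 after TPM, 3 without the trend and 3 to 6 with 1 library left out. Other vasoactive genes gave 0 higher at 5 FPKM, 1 lower without the trend, 1 lower with voom and 0 to 1 lower with 1 library left out. Endothelial markers gave 5 lower at 5 FPKM. Smooth muscle markers gave 3 lower with no filter, 3 at 5 FPKM and 3 after TPM, 1 higher after TPM, and 2 to 5 lower and 0 to 1 higher with 1 library left out. Cardiomyocyte markers gave 0 higher and 1 lower with no filter, 1 higher with the block and 0 to 4 higher with 1 library left out. The difference in the Ramp3 share ran from -1.37 to 0.0254 percentage points with 1 library left out. The causes of these shifts were not tested. Read numbers limit the precision of Ramp3 (10 to 24 per library), Aplnr (32 to 63), Calca (9 to 39) and Edn3 in control (1 to 10).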
